A study of Rattus norvegicus with 12 samples.

Results

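The translation factors of protein synthesis were followed as one set of genes in rat brain after ischemic stroke. The set held every array probe set assigned to exactly 1 gene whose symbol starts with Eif (eukaryotic initiation factor) or Eef (eukaryotic elongation factor) and a digit, with Eif2s3y left out. It was chosen by symbol alone and by no measured value, although it was proposed with earlier results of these data known. It comprised 92 probe sets for 59 genes, of 14217 genes that the array names alone by a probe set. Messenger RNA was measured on 1 array per rat in 12 male Sprague-Dawley rats aged 8 weeks. The groups were 7 rats after middle cerebral artery occlusion with reperfusion (MCAO, which models ischemic stroke by surgery) and 5 rats after a sham operation (Sham). The left hemisphere was taken 24 h after reperfusion in both groups. The side of the occlusion is not named in the labels, and a whole hemisphere holds injured and spared tissue together.

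Initiation factors bring the messenger RNA, the initiator transfer RNA and the small ribosomal subunit together, find the start codon and let the large subunit join. Elongation factors then deliver each aminoacyl transfer RNA and move the ribosome along. Ischemia is known to block initiation in brain, in part because kinases phosphorylate the alpha subunit of eIF2 and because cap-dependent initiation is held back by eIF4E-binding proteins. These controls act on proteins, whereas the arrays measured only the messenger RNA of the factors.

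Promoter sequences are shown for members of contrasting behaviour and for factors whose messenger RNAs are known to begin with a run of pyrimidines, the signature of mRNAs whose translation depends on mTORC1. The sequences were taken from RefSeq (build GRCr8), which held a 300-base window (250 bases before the annotated start and 50 after it) for 54 of the 59 genes. Each line below runs 5′ to 3′ from 60 bases before to 20 after the start. Capitals mark TATAA lying 45 to 20 bases before the start, TGACGTCA (the cyclic AMP response element), CACGTG (the E-box) and a run of at least 8 C or T within 20 bases of the start on the gene's own strand. The windows lie at chr8:88225050-88225129, minus strand (Eef1a1), chr9:72074031-72074110, plus strand (Eef1b2), chr7:9189219-9189298, minus strand (Eef2), chr1:172369002-172369081, plus strand (Eif3f), chr10:54888583-54888662, minus strand (Eif4a1) and chr11:91275304-91275383, minus strand (Eif4a2).
Eef1a1: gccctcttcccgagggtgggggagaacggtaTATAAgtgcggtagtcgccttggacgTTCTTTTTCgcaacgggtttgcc
Eef1b2: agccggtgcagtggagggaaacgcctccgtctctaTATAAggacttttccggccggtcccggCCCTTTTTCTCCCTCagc
Eef2: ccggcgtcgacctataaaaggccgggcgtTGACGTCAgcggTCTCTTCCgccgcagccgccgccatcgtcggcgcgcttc
Eif3f: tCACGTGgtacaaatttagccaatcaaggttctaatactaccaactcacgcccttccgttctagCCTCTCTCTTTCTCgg
Eif4a1: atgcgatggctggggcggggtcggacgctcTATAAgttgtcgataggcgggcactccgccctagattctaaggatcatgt
Eif4a2: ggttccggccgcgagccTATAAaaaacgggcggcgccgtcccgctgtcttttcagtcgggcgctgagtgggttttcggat

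The elongation factor promoters Eef1a1, Eef1b2 and Eef2 each held a pyrimidine run near the annotated start, as did that of the eIF3 subunit Eif3f. In Eef1b2 the run was 15 bases long and in Eif3f it was 14. Counted from the annotated start, the run began at base -3 in Eef1a1, -19 in Eef2, 3 in Eef1b2 and 5 in Eif3f. It began at the annotated first base in none of these, and in Eef2 it ended before the start. Such a run stood in 14 of the 54 member promoters (25.9%), against 15.5% of all 33465 promoters of the table and 15% of the 13193 whose gene is on the array. Of the 10 measured members with such a run 8 rose and 2 (Eif2s3 and Eif3k) did not pass, a share near the 79.5% of all measured members that rose. TATAA 45 to 20 bases before the start, searched on both strands, was found in Eef1a1, Eef1b2, Eif4a1 and Eif4a2. That is 7.41% of the members, against 3.57% of all promoters and 3.59% of those of array genes. In the members with it, TATAA stood on the gene's own strand. The helicase paralogs Eif4a1 and Eif4a2 share these letters, and their signals moved in opposite directions.

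The E-box CACGTG, searched on both strands over the 300 bases (it reads the same on each), occurred in 12 member promoters (22.2%), against 6.42% of all promoters and 8.65% of those of array genes. Of the 10 measured members with it 9 rose and 1 (Eif5a2) fell, where 79.5% of all measured members rose and 6.82% fell. It is shown in capitals with 12 flanking bases on each side in 5 members, the cap-binding protein gene Eif4e (chr2:229740661-229740690, plus strand), the scaffold gene Eif4g1 (chr11:93746404-93746433, minus strand), the eIF3 subunit gene Eif3b (chr12:19334808-19334837, minus strand) and the paralogs Eif5a (chr10:55143410-55143439, minus strand) and Eif5a2 (chr2:113657651-113657680, plus strand).
Eif4e: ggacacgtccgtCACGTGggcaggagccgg
Eif4g1: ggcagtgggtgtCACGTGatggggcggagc
Eif3b: actcgctgcacgCACGTGgctccgcgctag
Eif5a: aaggggcggggtCACGTGtgtgcgtcattg
Eif5a2: cagggcgagcttCACGTGactgggcgggac

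Eif5a and Eif5a2 both held the E-box and their signals changed in opposite directions. TGACGTCA was found only in Eef2 among the members (1.85%, against 1.83% of all promoters and 2.71% of array genes). TATAA anywhere in the window, on either strand, stood in 16.7% of members, 26.2% of all promoters and 16.1% of array genes, and ATTGG (the CCAAT box read from the other strand) likewise in 31.5%, 37.5% and 36.8%. These shares describe letters in a window and were not tested against the array values.

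The deposited values are on a log2 scale, judged from their range. Most of the table (62.5% of non-control probe sets) barely varied, with an SD under 0.01 over the 12 arrays, and these probe sets were counted apart. Of the 92 member probe sets 35 were of that kind, and 57, for 44 genes, varied and passed the filter on low values. One of the 57, of Eef1akmt4, passed it only through the MCAO arrays. The 15 genes with no varying probe set were Eef1a2, Eef1akmt1, Eef1akmt2, Eef2k, Eif2a, Eif2ak1, Eif2ak3, Eif2b2, Eif2b4, Eif2b5, Eif4b, Eif4ebp2, Eif4enif1, Eif4g3 and Eif4h. Of the 4 member probe sets that failed the filter, all were near-constant (1 each of Eef2k, Eif4g3, Eef1a2 and Eef2). The near-constant members moved by at most 0.0030 log2 units, and nothing is read from them. Array medians lay between 7.23 and 7.27. The 3′ minus 5′ signal of the beta-actin control, a sign of RNA integrity, was 1.27 to 1.47 in 6 MCAO arrays and 1.40 to 1.46 in Sham. In MCAO 6 it was -0.44. That value was set aside because the control rows of MCAO 6 do not match the other arrays. The other rows of MCAO 6 were kept in the main fit.

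Most translation factor mRNAs were higher in MCAO. Of the 44 measured genes 35 rose (79.5%), where 37.8% of all 6713 measured genes of the array rose. Eef1akmt4, which passed the filter only through the MCAO arrays, is counted among the 35. Only Eif4a2, Eif5a2 and Eif2ak4 fell (6.82%, where 33.3% of all genes fell). By probe set, 46 of 57 were higher (80.7%) against 37.0% of all 8438 tested, and 3 were lower (5.26%) against 30.7%. Calls are at an adjusted p under 0.05 in limma, with Benjamini-Hochberg adjustment over the 17244 probe sets that name 1 gene and passed the filter on low values. In bulk tissue, fewer cells of a type and less RNA per cell cannot be told apart.

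The shifts were moderate. The median log2 change of the 57 member probe sets was 0.38, where that of all varying probe sets was 0.056, and 13 members reached a 1.5-fold rise. Among called rises alone the median was 0.47 for the members and 0.41 for all probe sets. All 7 MCAO values lay above all 5 Sham values for 28 member probe sets (49.1%, background 18.2%) and below them for 1 (1.75%, background 14.2%). The 28 include that of Eef1akmt4. MCAO rats had the wider SD in 51 of the 57 members, a share of 89.5% against 88.6% of all. Of the 8 member probe sets that did not pass, 7 had positive and 1 had negative changes.

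**Figure D1:**
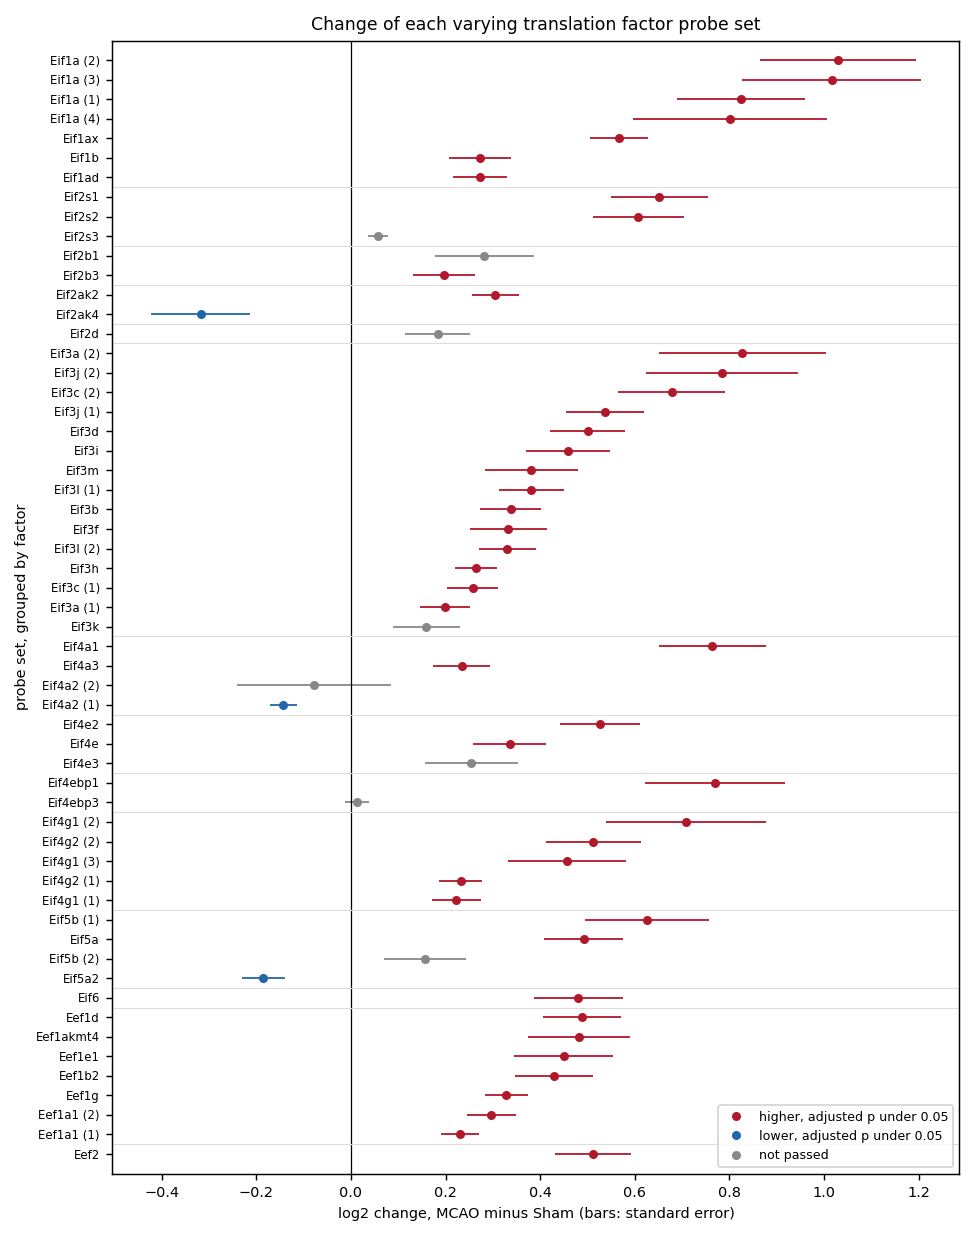
Log2 change of MCAO over Sham (x axis) with its standard error for the 57 varying member probe sets (y axis, grouped by factor; probe sets of one gene are numbered by falling mean signal in MCAO). Red marks the 46 probe sets called higher, blue the 3 called lower and grey the 8 that did not pass; the 4 Eif1a probe sets lie between 0.80 and 1.03.

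Factors that open the small subunit for scanning rose. All 4 measured genes of the Eif1 group were higher in MCAO, and Eif1a, which codes for an eIF1A protein that binds the small subunit and stabilises scanning, held the 2 largest rises of the set. The Eif1a probe set with the largest change had a lowest, median and highest log2 signal of 8.74, 9.52 and 9.81 in the 7 MCAO rats, against 8.54, 8.21, 8.23, 8.37 and 8.37 in the 5 Sham rats. No MCAO value reached down to the Sham values, and the log2 change was 1.03 ± 0.16 (SE; limma adjusted p = 0.00192), or 2.04-fold. The other 3 Eif1a probe sets changed by 1.02, 0.82 and 0.80, and in the last of these 1 MCAO rat lay within the Sham values.

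Its paralog Eif1ax changed less but with the strongest limma statistic of all members. Eif1ax had a lowest, median and highest log2 signal of 10.27, 10.55 and 10.66 in the 7 MCAO rats, against 9.99, 9.93, 9.91, 9.98 and 9.98 in the 5 Sham rats. The groups were fully apart and the change was 0.57 ± 0.061 (adjusted p = 0.000472). Eif1b, a close relative of the start codon selection factor eIF1, rose by 0.27 ± 0.065 (adjusted p = 0.00864), with 6 of 7 MCAO rats above every Sham rat. Eif1ad, whose protein shares a domain with eIF1A and acts in small subunit maturation, rose by 0.27 ± 0.057.

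Within eIF2, the complex that carries the initiator transfer RNA, alpha and beta subunit mRNAs rose and that of the gamma subunit did not pass. Eif2s1, coding for the alpha subunit on which stress kinases act, had a lowest, median and highest log2 signal of 9.81, 10.21 and 10.41 in the 7 MCAO rats, against 9.51, 9.42, 9.48, 9.55 and 9.52 in the 5 Sham rats. Every MCAO rat exceeded every Sham rat, and the change was 0.65 ± 0.10 (adjusted p = 0.00179). Eif2s2, the beta subunit gene, ranged from 10.64 to 11.19 in MCAO, against 10.32 to 10.41 in Sham, again without overlap, and rose by 0.61 ± 0.096 (adjusted p = 0.00186). Eif2s3, the gene of the gamma subunit that binds GTP, changed by 0.057 ± 0.022 (adjusted p = 0.0566), and its values overlapped, at 9.72 to 9.83 in MCAO, against 9.71 to 9.80 in Sham. The difference between subunits was not tested.

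The exchange factor eIF2B, which reloads eIF2 with GTP and is the brake point of the integrated stress response, was thinly measured. Of its 5 genes only Eif2b1 and Eif2b3 had a varying probe set. Eif2b3 rose by 0.20 ± 0.065 (adjusted p = 0.0329), with values of 7.96 to 8.35 in MCAO, against 7.87 to 8.08 in Sham. That call was lost on leaving out any of MCAO 3, MCAO 5, MCAO 6, Sham 1, Sham 2 or Sham 4, at adjusted p values of 0.0561 to 0.080. Eif2b1 changed by 0.28 ± 0.10 and did not pass (adjusted p = 0.0517). Eif2d, whose protein can place initiator transfer RNA without eIF2, changed by 0.18 ± 0.069 (adjusted p = 0.054).

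Of the 4 eIF2-alpha kinases, the double-stranded RNA sensor and the amino acid sensor moved in opposite directions. Eif2ak2 (PKR) had a lowest, median and highest log2 signal of 7.66, 7.92 and 7.95 in the 7 MCAO rats, against 7.54, 7.60, 7.55, 7.53 and 7.59 in the 5 Sham rats. The groups did not overlap and the change was 0.31 ± 0.049 (adjusted p = 0.00198). Eif2ak4 (GCN2) had a lowest, median and highest log2 signal of 6.97, 7.20 and 7.56 in the 7 MCAO rats, against 7.24, 7.69, 7.70, 7.60 and 7.44 in the 5 Sham rats. Most MCAO rats lay near 7.20, while MCAO 2 lay among the Sham values and Sham 1 among the MCAO values. The change was -0.32 ± 0.10 (adjusted p = 0.0324), and leaving out any of MCAO 1, 3, 5, 6 or 7 or Sham 2, 3 or 4 ended the call (adjusted p = 0.054 to 0.0836). Eif2ak1 (the heme-regulated kinase) and Eif2ak3 (PERK, the kinase of the endoplasmic reticulum) had no varying probe set.

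The genes that act around eIF2 phosphorylation were read from a separate list. Of its 8 genes 5 were measured, of which 4 rose and 1 fell, where 37.8% of all measured genes rose and 33.3% fell. Ppp1r15a, which directs a phosphatase to eIF2-alpha, rose by 0.75 ± 0.12 (adjusted p = 0.00193), and Atf4, the transcription factor whose translation increases when eIF2 is limiting, by 0.74 ± 0.13 (adjusted p = 0.00237). Both were fully separated between groups. The member that fell was Impact, a neuronal inhibitor of GCN2 activation, by 0.41 ± 0.084 on the log2 scale (adjusted p = 0.00452), named after its value was seen.

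Among the measured subunit mRNAs of the scaffold complex eIF3, which coats the small subunit and recruits the mRNA, nearly all rose. Of 11 measured subunit genes 10 rose (Eif3a, Eif3b, Eif3c, Eif3d, Eif3f, Eif3h, Eif3i, Eif3j, Eif3l and Eif3m), with called changes of 0.20 to 0.83. Eif3k changed by 0.16 ± 0.071 (adjusted p = 0.0957). Eif3j, a loosely bound subunit at the mRNA entry site, had the strongest limma statistic of the complex. The brighter Eif3j probe set had a lowest, median and highest log2 signal of 9.93, 10.25 and 10.36 in the 7 MCAO rats, against 9.68, 9.56, 9.58, 9.61 and 9.77 in the 5 Sham rats. The groups were apart, and the change was 0.54 ± 0.083 (adjusted p = 0.00176).

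The core subunits Eif3c and Eif3a gave different sizes by probe set. Eif3c ranged from 9.67 to 10.38 in MCAO, against 9.34 to 9.60 in Sham, for a change of 0.68 ± 0.11 on one probe set, and from 10.60 to 10.93 in MCAO, against 10.43 to 10.61 in Sham, for a change of 0.26 ± 0.054, on a brighter one. Eif3a, the largest subunit, changed by 0.83 ± 0.18 on its dimmer probe set and by 0.20 ± 0.052 on its brighter one. Eif3f, whose promoter window above holds an E-box and a pyrimidine run, rose by 0.33 ± 0.08 (adjusted p = 0.00888), with 6 of 7 MCAO rats above all Sham rats.

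The cap-binding complex eIF4F held the pair of paralogs with the widest difference in change. Eif4a1 codes for the main helicase that unwinds the leader of mRNAs and Eif4a2 for the form most abundant in brain. Eif4a1 had a lowest, median and highest log2 signal of 10.98, 11.41 and 11.60 in the 7 MCAO rats, against 10.54, 10.44, 10.48, 10.57 and 10.65 in the 5 Sham rats. All MCAO values were above all Sham values, with a change of 0.76 ± 0.11 (adjusted p = 0.00151) or 1.7-fold. The bright probe set of Eif4a2 had a lowest, median and highest log2 signal of 12.51, 12.56 and 12.69 in the 7 MCAO rats, against 12.71, 12.77, 12.73, 12.68 and 12.73 in the 5 Sham rats. Here 6 of 7 MCAO rats were below every Sham rat, and the change was -0.14 ± 0.029 (adjusted p = 0.00424). A second, dimmer Eif4a2 probe set changed by -0.078 ± 0.16 (adjusted p = 0.744), with wide overlap. Eif4a3, the helicase of the exon junction complex, rose by 0.23 ± 0.06 (adjusted p = 0.0115).

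Among cap-binding proteins, Eif4e, the limiting cap-binding factor, rose by 0.34 ± 0.077 (adjusted p = 0.00719) and Eif4e2 (4EHP, which occupies the cap without starting translation) by 0.53 ± 0.084 (adjusted p = 0.00192). Eif4e2 had a lowest, median and highest log2 signal of 7.95, 8.27 and 8.42 in the 7 MCAO rats, against 7.75, 7.62, 7.71, 7.76 and 7.72 in the 5 Sham rats, so that the groups were apart. Eif4e ranged from 10.26 to 10.74 in MCAO, against 10.10 to 10.35 in Sham, with 1 MCAO rat in the Sham range. Eif4e3 changed by 0.25 ± 0.098 and did not pass (adjusted p = 0.0586). The scaffolds Eif4g1 and Eif4g2 (DAP5, which works without the cap-binding protein) rose on all 5 of their varying probe sets. On the brightest probe sets, Eif4g1 changed by 0.22 ± 0.053 (adjusted p = 0.00799) and Eif4g2 by 0.23 ± 0.045 (adjusted p = 0.00376). The Eif4g2 change was 0.14 under quantile normalization, still past the threshold.

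Of the binding proteins that sequester eIF4E, Eif4ebp1 rose and Eif4ebp3 did not pass. Eif4ebp1 had a lowest, median and highest log2 signal of 8.07, 8.56 and 8.90 in the 7 MCAO rats, against 7.69, 7.64, 7.67, 7.63 and 7.83 in the 5 Sham rats. The rats with the lowest MCAO values still exceeded every Sham rat, and the change was 0.77 ± 0.15 (adjusted p = 0.00354). Eif4ebp3 changed by 0.012 ± 0.025 (adjusted p = 0.734), and its sign turned under 2 of 3 other scalings. The list of MNK kinase and mTORC1 signalling genes, of which mTORC1 acts on these proteins, had 9 of 16 genes measured. In it 3 rose, 2 fell, 1 was called in both directions on different probe sets and 3 did not pass, where 37.8% of all measured genes rose and 33.3% fell. The gene called in both directions is among Tsc1, Rps6kb1 and Pdcd4, each lower on its brightest probe set. On its brightest probe set Tsc1, a brake on mTORC1, fell by 0.33 ± 0.048 on the log2 scale (adjusted p = 0.00141). Rps6, the ribosomal protein phosphorylated downstream, rose by 0.41 ± 0.077 (adjusted p = 0.00338). Sesn2, an inhibitor of mTORC1, rose by 0.66 ± 0.18 (adjusted p = 0.0155), and Rps6kb1, the kinase of Rps6, changed by -0.21 ± 0.063 on its brightest probe set (adjusted p = 0.0238), both named after their values were seen.

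**Figure D2:**
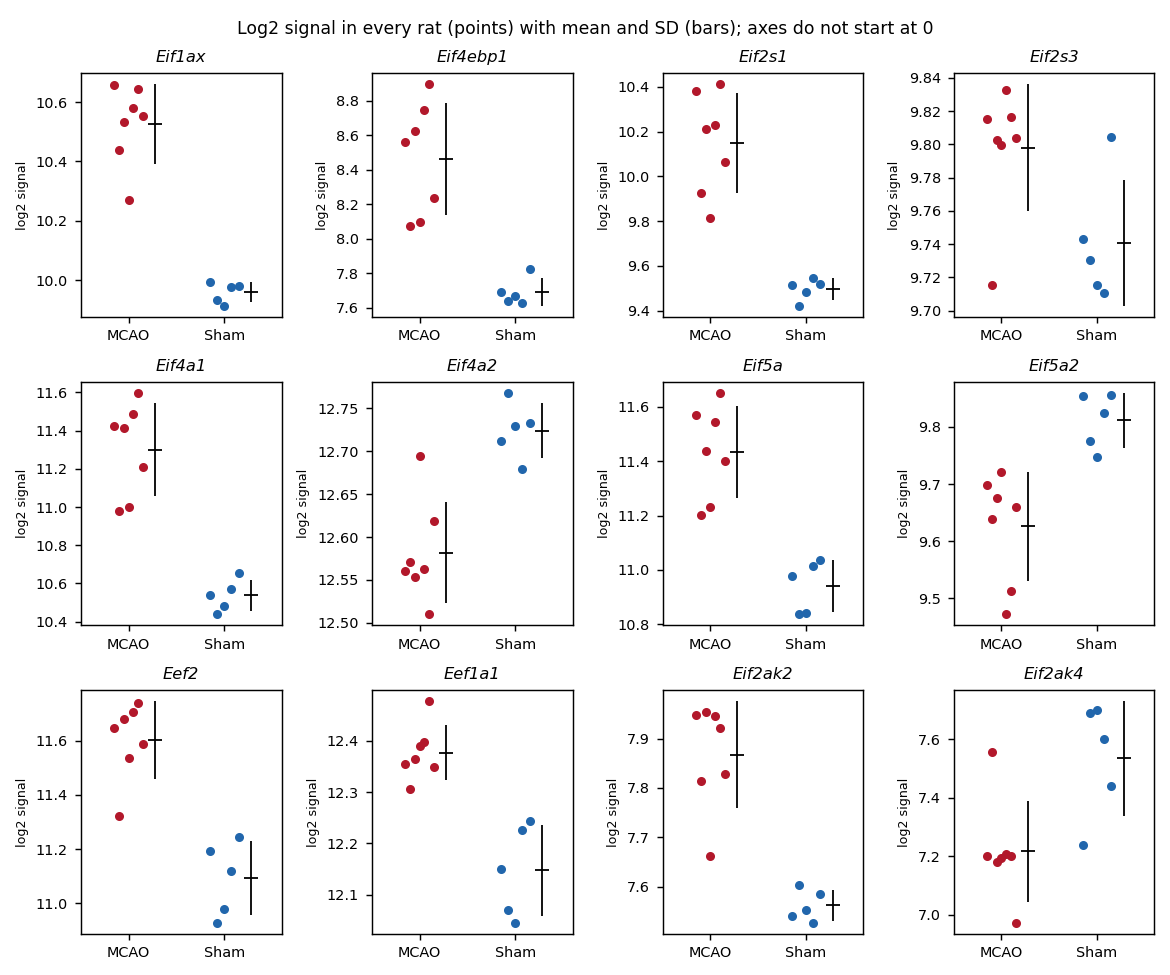
Log2 signal (y axis, not starting at 0) of 12 members in every MCAO rat (red, left) and Sham rat (blue, right), with the mean and SD in black; the brightest probe set stands for each gene. Eif4a1 and Eif5a lie higher in all MCAO rats and Eif5a2 lower, while Eif2s3 overlaps.

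The Eif5 group and Eif6 act where the subunits join and where peptide bonds form slowly. Eif5a, the only protein known to carry the amino acid hypusine together with its paralog, had a lowest, median and highest log2 signal of 11.20, 11.44 and 11.65 in the 7 MCAO rats, against 10.98, 10.84, 10.84, 11.02 and 11.04 in the 5 Sham rats. The groups were apart and the change was 0.49 ± 0.083 (adjusted p = 0.00228). Eif5a2, the paralog with narrower expression, had a lowest, median and highest log2 signal of 9.47, 9.66 and 9.72 in the 7 MCAO rats, against 9.85, 9.78, 9.75, 9.82 and 9.86 in the 5 Sham rats. It was the 1 member with every MCAO value below every Sham value, and the change was -0.19 ± 0.046 (adjusted p = 0.00986). Eif5b, the GTPase of subunit joining, rose by 0.63 ± 0.13 on one probe set (adjusted p = 0.0048) and changed by 0.16 ± 0.087 on a dimmer one (adjusted p = 0.172). Eif6, which keeps the large subunit from joining too early, ranged from 9.44 to 10.08 in MCAO, against 9.31 to 9.41 in Sham, and rose by 0.48 ± 0.094 (adjusted p = 0.00379).

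Hypusine and diphthamide are modifications made on eIF5A and eEF2 alone. The list of enzymes that make them had 5 of 9 genes measured. Of these 2 rose and 1 fell, where 37.8% of all measured genes rose and 33.3% fell. Dph3, an electron carrier for diphthamide synthesis, rose by 0.85 ± 0.13 (adjusted p = 0.00183). Dhps, the first enzyme of hypusine synthesis, rose by 0.35 ± 0.076 (adjusted p = 0.00544). The 1 that fell was Dph7 by 0.082 ± 0.021 on the log2 scale, named after its value was seen.

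All 6 measured genes of the Eef1 group rose, by 0.23 to 0.49 on 7 probe sets, though Eef1akmt4 entered only through the MCAO arrays. Eef1a1, the carrier of aminoacyl transfer RNA, had a lowest, median and highest log2 signal of 12.31, 12.36 and 12.48 in the 7 MCAO rats, against 12.15, 12.07, 12.05, 12.23 and 12.24 in the 5 Sham rats on its brighter probe set. The groups were apart by a narrow margin, and the change was 0.23 ± 0.04 (adjusted p = 0.00252), or 0.14 under quantile normalization, still past the threshold. Of the subunits that recharge eEF1A with GTP, Eef1g rose by 0.33 ± 0.045 (adjusted p = 0.00119), Eef1d by 0.49 ± 0.083 (adjusted p = 0.0023) and Eef1b2 by 0.43 ± 0.082 (adjusted p = 0.00344). Eef1g had the strongest limma statistic of the group, with values of 11.28 to 11.57 in MCAO, against 11.06 to 11.17 in Sham. Eef1e1, a member of the multi-synthetase complex, rose by 0.45 ± 0.10, and Eef1akmt4, a methyltransferase of eEF1A, by 0.48 ± 0.11. The Sham mean of Eef1akmt4 was 6.565, under the filter value of 6.61. Eef1a2, the form used in mature neurons and muscle, had only near-constant probe sets.

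Eef2, the translocase that eEF2 kinase inhibits, had a lowest, median and highest log2 signal of 11.32, 11.65 and 11.74 in the 7 MCAO rats, against 11.19, 10.93, 10.98, 11.12 and 11.25 in the 5 Sham rats. All MCAO rats were above all Sham rats, for a change of 0.51 ± 0.081 (adjusted p = 0.00186), or 1.43-fold. The kinase gene Eef2k had 4 probe sets, all near-constant.

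Other translation genes were read from 3 further lists. For comparison with their counts, 37.8% of all measured genes of the array rose and 33.3% fell. Of the scanning, recycling and termination helpers 10 of 12 were measured, of which 7 rose and 1 fell. Etf1, the release factor that reads stop codons, rose by 0.57 ± 0.093 (adjusted p = 0.00201), and Abce1, which splits ribosomes after termination, by 0.34 ± 0.057 (adjusted p = 0.00223). The partners of Etf1 diverged, in a pair singled out after its values were seen. Gspt1 rose by 0.66 ± 0.12 (adjusted p = 0.00316) and Gspt2 fell by 0.32 ± 0.059 on the log2 scale (adjusted p = 0.00322), each without overlap of the groups. Of the cap and poly(A) binding genes 4 of 10 were measured, and 2 rose and 1 fell. Pabpc4, a poly(A) binding protein, rose by 0.68 ± 0.12 (adjusted p = 0.00247), and Ncbp2, of the nuclear cap-binding complex, by 0.09 ± 0.019 (adjusted p = 0.00471). Of the mitochondrial and selenocysteine factors only 2 of 10 were measured. Tufm, the mitochondrial counterpart of eEF1A, rose by 0.22 ± 0.056, and Mtif2, the mitochondrial initiation factor, fell by 0.073 ± 0.019 on the log2 scale (adjusted p = 0.0112 and 0.0111). The Mtif2 call ended when near-constant probe sets were left out (adjusted p = 0.0954).

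Paralogs were compared directly, by the difference of their log2 values within each array, in a two-sided exact permutation test that ran through every assignment of the 12 rats to groups of 7 and 5. Of 12 pairs 9 changed by unequal amounts after Benjamini-Hochberg adjustment over the pairs, and the smallest unadjusted p the design allows is 0.00126. Pairs of other genes were not run, and 37.8% of all measured genes rose and 33.3% fell. Whether 9 of 12 is more than for other gene pairs was not tested. The Eif4a pairs draw on the same probe sets and are not independent. Eif4a1 exceeded Eif4a2 in its change by 0.91 ± 0.12 (SE; exact permutation adjusted p = 0.00505), with 7 of 7 MCAO rats outside the Sham differences. Eif5a exceeded Eif5a2 by 0.68 ± 0.093 (exact adjusted p = 0.00505), also in 7 of 7 rats. Eif4a1 also exceeded Eif4a3, by 0.53 ± 0.081 (exact adjusted p = 0.00505), and Eif4a2 minus Eif4a3 was -0.38 ± 0.07 (exact adjusted p = 0.00649).

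Further pairs also moved unequally. The difference was 0.76 ± 0.13 for Eif4ebp1 minus Eif4ebp3 and 0.62 ± 0.12 for Eif2ak2 minus Eif2ak4 (exact adjusted p = 0.00649 for each). Eif1a changed by 0.26 ± 0.072 more than Eif1ax (exact adjusted p = 0.0253). Eif4e2 changed more than its relatives, by 0.27 ± 0.084 over Eif4e3 (exact adjusted p = 0.0253, or 0.0646 without Sham 1), whereas Eif4e minus Eif4e2 was -0.19 ± 0.053 (exact adjusted p = 0.00649). No difference passed for Eif4e minus Eif4e3 (0.081 ± 0.093), Eif4g1 minus Eif4g2 (-0.009 ± 0.054) or Eef1b2 minus Eef1d (-0.059 ± 0.079). Levels of different probe sets were not compared, only their changes.

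**Figure D3:**
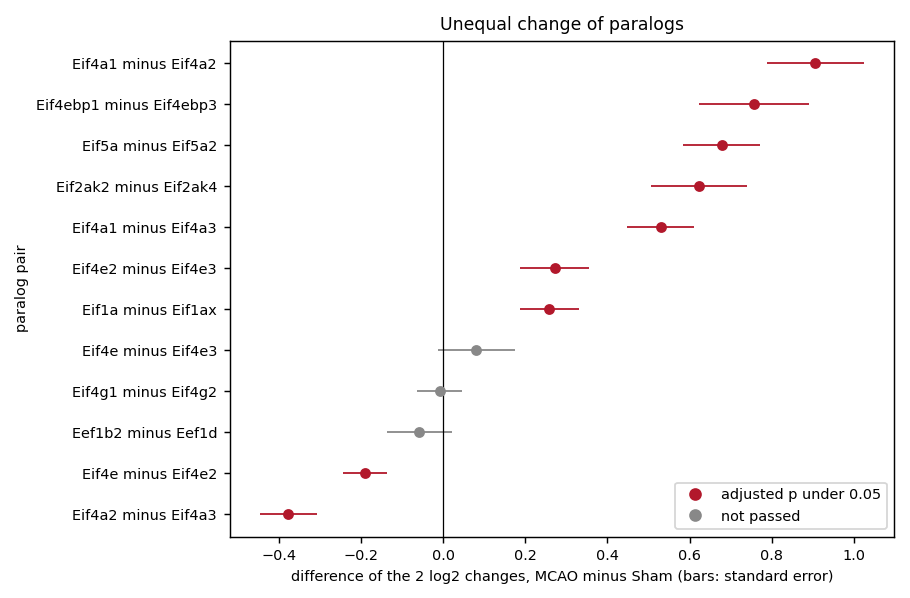
Difference between the log2 changes (MCAO minus Sham) of 2 paralogs (x axis, bars are standard errors) for 12 pairs (y axis). Red marks the 9 pairs past an adjusted p of 0.05 in the exact permutation test; Eif4a1 minus Eif4a2 is the widest at 0.91.

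Probe sets of one gene often gave different sizes of change with the same sign. In all 10 genes had several varying probe sets, and in 5 of them the largest change was more than 2 times the smallest (Eif3a, Eif3c, Eif4g1, Eif4g2 and Eif5b). In 6 of the 10 the brightest probe set had the smallest change. Eif4g1 spanned 0.22 on its brightest probe set to 0.71 on a dimmer one. The paralog comparisons above use the brightest probe set of each gene, and were not repeated on dimmer ones. The smallest called pair differences were -0.19 (Eif4e minus Eif4e2), 0.26 (Eif1a minus Eif1ax) and 0.27 (Eif4e2 minus Eif4e3). Probe sets of 1 gene could differ by more, as in Eif3a (0.20 and 0.83). The 4 Eif1a probe sets, at 0.80 to 1.03, all changed by more than that of Eif1ax (0.57). Whether such small differences belong to the genes or to the probe sets was not tested.

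The rise was uneven among the MCAO rats. Over the 46 probe sets called higher, the median difference from the Sham mean was 0.63, 0.23, 0.54, 0.27, 0.56, 0.65 and 0.38 log2 units in MCAO 1 to MCAO 7, against -0.077 to 0.066 in the Sham rats. MCAO 4 was the lowest MCAO rat for 25 of these probe sets and MCAO 2 for 21, whereas MCAO 1 and MCAO 6 were the highest for 19 each. Of the 46, 35 were higher in MCAO 2 than in any Sham rat, and 39 were so in MCAO 4. The 46 were called higher from these same arrays, so such counts are partly set by that choice. The share over all called probe sets of the array was not computed. Without MCAO 2 the number of higher probe sets was 52, and without MCAO 4 it was 48.

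Cell type markers also differed between the groups. For comparison with the counts below, 37.8% of all measured genes of the array rose and 33.3% fell. Neuronal markers were present in every array, and 5 of 8 fell and 0 rose. Their mean log2 signal was 10.72 to 11.08 in MCAO, against 11.09 to 11.23 in Sham. All 6 markers listed for blood-derived myeloid cells rose, at 7.48 to 8.55 in MCAO against 6.31 to 6.47 in Sham. Whether these signals came from blood-derived cells was not tested. Of 6 astrocyte markers 1 rose and 4 fell, of 5 oligodendrocyte markers 1 rose and 1 fell, of 3 microglia markers 1 rose and 2 fell, of 4 endothelial markers 3 rose, and of 2 choroid plexus markers 0 passed. MCAO 2, MCAO 4 and MCAO 7, the rats with the smallest factor rise, had the lowest myeloid signal (7.48, 7.55 and 7.54) and the highest neuronal signal (11.08, 11.02 and 10.99) of the MCAO rats. The part of cell composition in the factor changes was not tested.

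**Figure D4:**
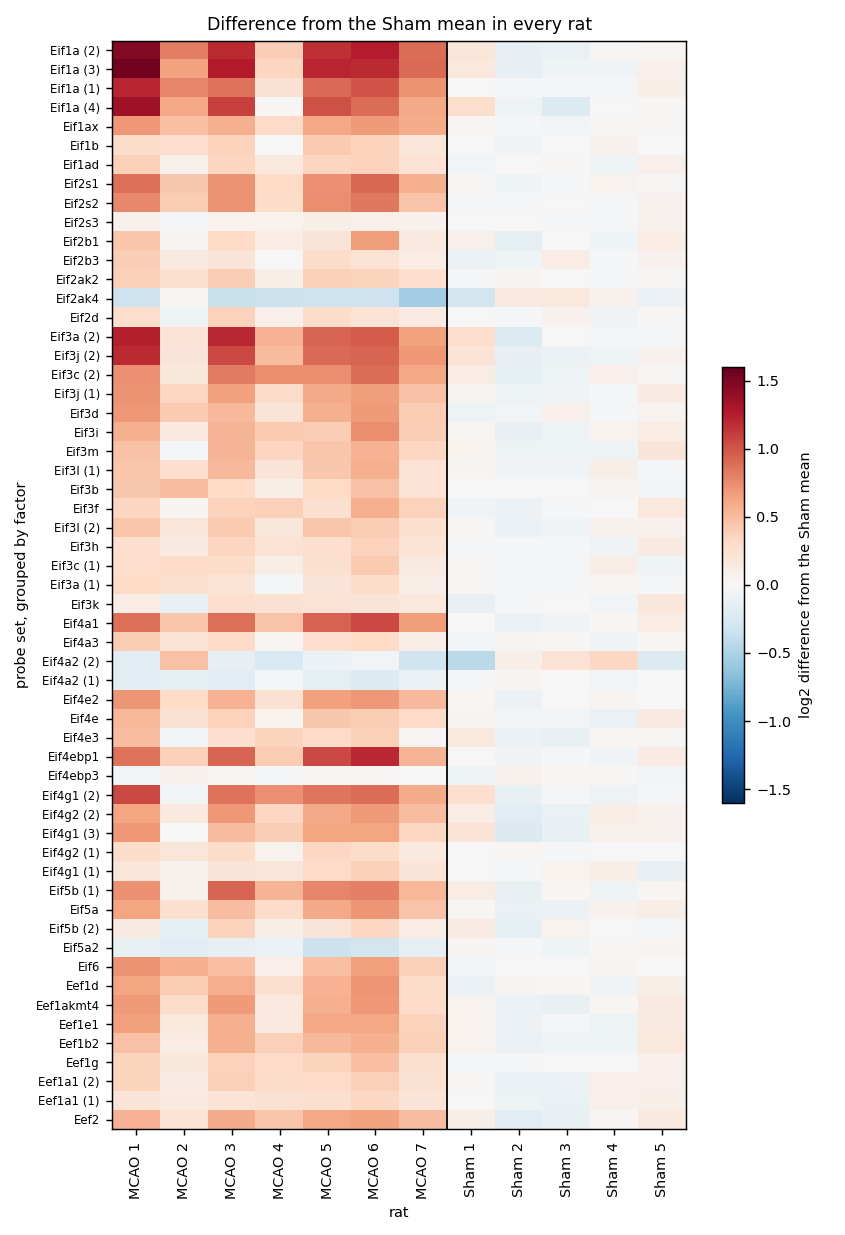
Difference of each log2 value from the Sham mean (colour) for the 57 varying member probe sets (rows, grouped by factor) in the 7 MCAO rats (left of the line) and the 5 Sham rats (right). MCAO 2 and MCAO 4 are paler than the other MCAO rats, and the blue entries among MCAO rats fall mainly in Eif2ak4, Eif4a2 and Eif5a2.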

How the data were processed

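The deposited table, made by the authors, holds 1 value per probe set and array (31099 probe sets, 57 of them controls). The range of the values puts them on a log2 scale, and these log2 values were used as deposited by the authors. How the scanner signals were corrected, summarized and normalized before that, and with which software, is not given in the sources used here. Genes came from the platform annotation: 20826 probe sets name 1 gene, 436 several and 9780 none. Only those with 1 gene were tested, so Eif5 and Eif3e, which share probe sets with other genes, are no members.

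The 17244 probe sets above 6.61 (the 25th percentile of all values) in at least 5 arrays entered one limma fit (version 3.58.1, R 4.3.3) that compared MCAO with Sham. Variances were moderated by eBayes along the intensity trend, tests were two-sided, and p-values were adjusted by Benjamini-Hochberg across the whole fit, with a threshold of 0.05. Counts are over the 8438 that varied (SD of at least 0.01). Errors of changes are standard errors from that fit, and those of paralog differences come from the 2 groups' SDs. A gene rose (or fell) when at least 1 varying probe set was called that way and none the other way. Each rat gave 1 array, so replicates are separate rats, and their number limits the precision. Groups came from the sample titles.

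The members and the lists were chosen with earlier results of these data known. Genes named first were the 12 largest rises and falls among called members with fully separated groups, the strongest limma statistic in each factor group, every gene of a paralog family, and the 2 strongest genes of each other list (by the brightest varying probe set). Other members, Impact, Sesn2, Rps6kb1, Dph7, Gspt1 and Gspt2 are named as further description, after their values were seen. Alternatives were other scalings, filters, probe set choices and eBayes settings, weights per array, a block for the replicate numbers, and leaving out each array. The beta-actin control of MCAO 6 was not used, because the control rows of that array do not match the other arrays.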

Additional observations from a re-analysis of the deposited data

Results flagged for a closer look

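In 10 of 114 sets of values (57 member probe sets in each group) 1 rat stood far from the others of its group, by Dixon's test. Chance alone gives about 1 in 20 such sets, or 5.7. MCAO 2 was that rat in 8 of the 10. It was the lowest MCAO rat for Eef1b2 at 11.823 (next 12.088), Eif2s3 at 9.7156 (next 9.7998), Eif3c (the dimmer probe set) at 9.6657 (next 10.097), Eif3k at 9.5093 (next 9.7419), Eif3m at 10.589 (next 10.932) and Eif4g1 (the probe set of largest change) at 7.4717 (next 8.1053). MCAO 2 was the highest MCAO rat for Eif2ak4 at 7.5576 (next 7.2079) and for the dimmer Eif4a2 probe set at 7.9713 (next 7.4653). Sham 5 was the highest Sham rat for Eif3h at 10.843 (next 10.682), and Sham 1 for that Eif4g1 probe set at 7.775 (next 7.4863). Values are log2 signals.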

How the results depend on the processing

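Members called higher numbered 46 under each of 3 other scalings and 36 to 52 over all settings, of which 36 counts genes in fits with 1 value per gene. Members called lower numbered 3 or, in the fits without 1 rat, 2 to 3, with Eif2ak4 lost, and 2 with the mean of a gene's probe sets. Whether the replicate numbers pair the rats is not known. Deviations of same-numbered rats correlated at 0.372, 0.581, -0.333, -0.0393 and 0.194. The MCAO rat that correlated best had the same number for Sham 1 and Sham 2, but not for Sham 3, Sham 4 and Sham 5. With a replicate block over the 10 rats of shared number, limma called 39 members higher (37 of them among the 46) and 0 lower, where 3 were lower at an unadjusted p under 0.05 with as without the block. The paired exact sign-flip test passed 0 of 12 paralog pairs, adjusted or not, because its smallest p with 5 pairs is 0.0625. Without 1 rat, 8 to 9 pairs passed. Signs turned only in members that had not passed. Eif4ebp3 stood at -0.011677 under quantile normalization, at -0.00097328 with equal array medians and at -0.0038272 to 0.0285 without 1 rat. The dimmer Eif4a2 probe set ranged from -0.18462 to 0.0048508 without 1 rat. The pair Eif4g1 minus Eif4g2 stood at 0.079519 under quantile normalization and at -0.037348 to 0.014754 without 1 rat. Eif2d and Eif4e3, not called, passed in 4 and 6 of 23 settings. Of the values for single genes under alternatives, 1130 kept sign and side of the threshold, 27 no longer passed, 10 newly passed and 4 turned sign. Signal over background limits the dim probe sets, of which Eef1akmt4 is one.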
